A study of Mus musculus with 32 samples.

Results

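The difference between liver and spleen was measured in regulatory T cells (Treg) and in conventional CD4 T cells (Tconv) of mouse, and the difference between those 2 differences was tested gene by gene. All 32 libraries of the series entered it, since each of the 8 groups is needed. The groups were liver Treg, spleen Treg, liver Tconv and spleen Tconv, each with 5 libraries of mice given carbon tetrachloride (CCl4), a compound toxic to the liver, and 3 libraries of control mice. Every group came from male C57BL/6 mice of the genotype Foxp3GFP, a reporter that marks cells expressing Foxp3, and the cells were sorted as TCRb+CD4+Foxp3+ for Treg and TCRb+CD4+Foxp3- for Tconv. Tconv is therefore a mixed gate that takes any CD4 T cell without the reporter. The sources used here give neither the dose and duration of CCl4 nor the age of the mice. Whether each library of a group is a different mouse is not stated, and the p-values describe only the variation among libraries, which may be technical.

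Treg restrain immune responses and need the transcription factor Foxp3, while Tconv hold naive, memory and effector helper cells. Both circulate through lymphoid organs such as the spleen and can settle in tissues, where T cells lose genes of the naive state and gain genes for retention, tissue repair and local signals. Tissue Treg are known for the alarmin receptor encoded by Il1rl1, the transcription factor gene Gata3 and the repair factor gene Areg, and tissue Tconv for helper cytokines and cytotoxic molecules.

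For each gene the quantity tested was the log2 fold change of liver over spleen in Treg minus the same log2 fold change in Tconv, with CCl4 and control weighted alike. A positive difference means that the liver side gained more, or lost less, in Treg than in Tconv. Levels are CPM, counts scaled to a common library size, and a gene is called at an edgeR quasi-likelihood adjusted p under 0.05 (Benjamini-Hochberg over the 17159 genes tested). In these sorted populations, fewer cells of a type and less RNA per cell cannot be told apart.

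The libraries held between 24513124 and 75292019 estimated counts. Foxp3 lay between 909 and 1092 CPM in liver Treg and 927 and 1176 CPM in spleen Treg, against 0.681 and 2.96 CPM in liver Tconv and 1.35 and 3.43 CPM in spleen Tconv, as the gate requires. Cd4, Cd3e and Trac were above 494 CPM in every library, while Cd8a did not pass 1.37 CPM. Other RNA was present as well: the summed level of 17 hepatocyte markers was 152 to 573 CPM in liver Treg and 7.07 to 29.9 CPM in spleen Treg, against 194 to 658 CPM in liver Tconv and 3.15 to 11.4 CPM in spleen Tconv. In the difference 2 of these markers were lower, 0 higher and 15 not called, beside 12.4% lower and 7.02% higher of all genes tested. The lower count is near the share of all genes. The summed level of 14 B cell markers was 1818.9 to 2386.5 CPM in liver Treg and 2353.3 to 3174.6 CPM in spleen Treg. In Tconv that sum was 294 to 558 CPM in liver and 798 to 1004 CPM in spleen. Mean Ighm, an immunoglobulin gene, was lower in liver by 568 CPM in Treg and 425 CPM in Tconv. Control library 1 of liver Treg held pancreatic enzyme transcripts at a sum of 1583 CPM. Spleen controls 2 and 3 of both cell types had the immediate early gene Fos at 19.4 to 26.4 CPM, against at least 711 CPM in the other spleen libraries. The part of these features in the results was not tested, apart from the values given without those libraries.

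Most genes differed between liver and spleen in each cell type taken alone, and for many genes the size of that change was unequal between the cell types. Liver against spleen was called for 10398 genes in Treg (60.6% of those tested), 5167 higher (30.1%) and 5231 lower (30.5%), and for 9434 in Tconv (55%), 4674 higher (27.2%) and 4760 lower (27.7%). The difference between the cell types was called for 3324 genes (19.4% of those tested; 5254 at an unadjusted p under 0.05). Of these, 1204 were higher (7.02%) and 2120 lower (12.4%), and 282 and 598 of them differed by more than 2-fold. The median difference over all genes tested was -0.03. Liver and spleen libraries were apart, both within control and within CCl4, for 29.1% of the genes tested in Treg and 25.7% in Tconv.

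Shared movement was mostly in the same direction. Among genes called in both cell types, 6921 moved the same way in liver and 274 moved opposite ways. A further 3203 genes were called in Treg alone and 2239 in Tconv alone, but the difference itself was called for 1053 and 701 of these. The remaining genes past the threshold in a single cell type are not shown to differ between Treg and Tconv.

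Without the 4 spleen controls of low Fos, the difference was called for 627 genes higher and 1104 lower, and 48.3% and 49.3% of the calls were kept. That fit leaves 1 spleen control for each cell type, which is assumed to vary like the other groups.

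**Figure D1:**
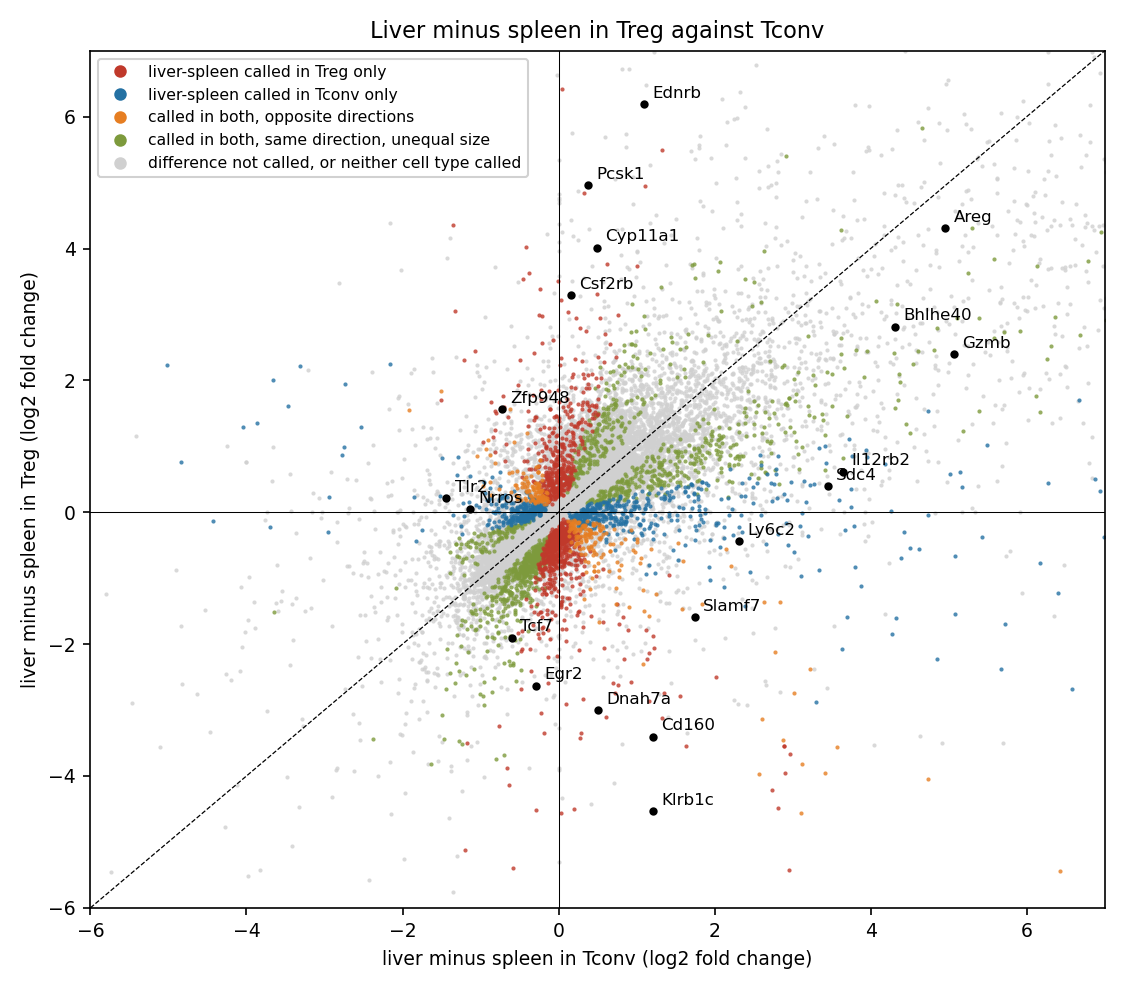
Log2 fold change of liver over spleen in Treg (vertical) against Tconv (horizontal) for the genes tested, with colours for genes called in the difference and grey for the rest. Genes near the vertical axis, such as Ednrb and Pcsk1 above and Dnah7a and Egr2 below, moved in Treg, and those near the horizontal axis, such as Il12rb2 and Ly6c2, moved in Tconv. The dashed line marks equal changes, and 183 genes lie outside the axes.

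The genes called in the difference were grouped by the liver against spleen call in each cell type. In Treg alone 459 were higher in liver and 594 lower, and in Tconv alone 429 were higher and 272 lower. The groups of opposite direction held 109 genes that were higher in liver Treg and lower in liver Tconv, and 165 with the reverse. Where both cell types moved the same way by unequal amounts, 248 genes gained more in Treg and 406 more in Tconv, while 512 lost more in Treg and 102 more in Tconv. For 28 genes neither cell type was called.

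A missing call in the other cell type is not a zero change, so its approximate 95% interval was read. That interval lay within a log2 fold change of -1 to 1 for 390 of the 459 and 535 of the 594 genes of Treg, and for 320 of the 429 and 250 of the 272 genes of Tconv. The median difference was 0.74 and -0.57 for the genes higher and lower in Treg alone, and -0.94 and 0.47 for those higher and lower in Tconv alone.

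**Figure D2:**
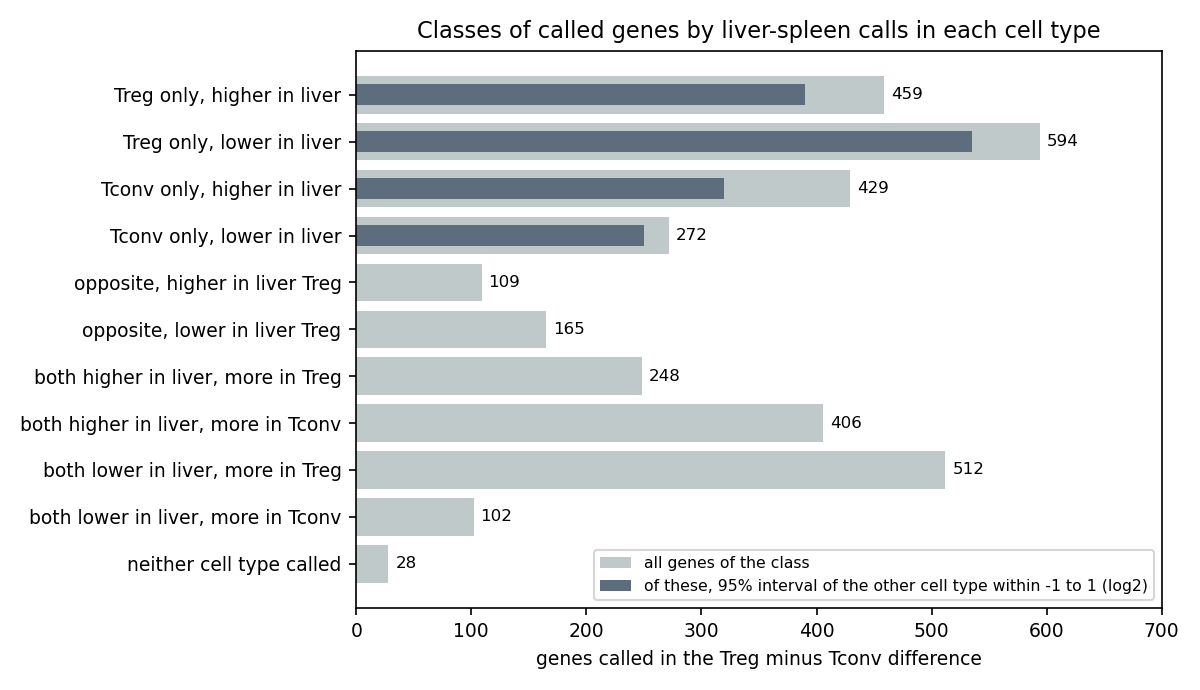
Number of genes called in the Treg minus Tconv difference, by the liver against spleen call in each cell type. Light bars give all genes of a group, and dark bars those of the single-cell-type groups whose 95% interval in the other cell type stays within -1 to 1 on the log2 scale. The largest group is the 594 genes lower in liver in Treg alone.

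Liver Treg gained receptors, a hormone-processing enzyme, a steroid enzyme and a costimulatory ligand that liver Tconv did not gain to a like extent. The genes described for each group are those of largest difference with at least 5 CPM on average in a population and with liver and spleen libraries apart within control and within CCl4, so that this separation is part of their choice. Here they were Ednrb, Pcsk1, Mreg, Tnfsf4, Cyp11a1 and Csf2rb, and their differences ran from 5.10 to 3.14 on the log2 scale.

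Ednrb (chr14:103814625-103844402, GRCm38) encodes the type B receptor for endothelin peptides. It stood at 8.10 to 141 CPM (median 51.04) in liver Treg, against 0.211 to 1.07 CPM (median 0.482) in spleen Treg. In liver Tconv it stood at 0.124 to 0.739 CPM (median 0.394), against 0.0534 to 0.274 CPM (median 0.149) in spleen Tconv. All 8 liver Treg libraries lay above every other library, and the Tconv populations overlapped near the detection floor. The log2 fold change of liver over spleen was 6.19 in Treg (SE 0.38) and 1.10 in Tconv (SE 0.49), a difference of 5.10, SE 0.66, adjusted p = 1.73e-06.

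Pcsk1 (chr13:75089826-75134861) encodes proprotein convertase 1, which cuts prohormones into active peptides. Its level was 19.4 to 195 CPM (median 63.5) in liver Treg, against 0.413 to 3.31 CPM (median 1.91) in spleen Treg. It was 3.06 to 14.2 CPM (median 7.91) in liver Tconv, against 1.14 to 15.4 CPM (median 5.00) in spleen Tconv. By the median, liver Treg had the highest level of the 4 populations and spleen Treg the lowest, and the Tconv populations overlapped. The difference was 4.58, SE 0.61, adjusted p = 2.73e-06, with an interval of -0.45 to 1.22 for the Tconv fold change.

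Cyp11a1 (chr9:58006411-58027023), whose product makes pregnenolone from cholesterol as the first step of steroid synthesis, was at 1.99 to 69.9 CPM (median 43.6) in liver Treg and 0.364 to 2.20 CPM (median 1.17) in spleen Treg. In Tconv it stayed under 1 CPM, at 0.220 to 0.985 CPM (median 0.448) in liver and 0.185 to 0.534 CPM (median 0.326) in spleen. The liver Treg libraries split by treatment, with 40.1 to 69.9 CPM in the CCl4 libraries and 1.99 to 5.04 CPM in the controls. The difference was 3.52, SE 0.38, adjusted p = 7.65e-08, and it was called within CCl4 (4.46, SE 0.46, adjusted p = 3.97e-08) and within control (2.59, SE 0.60, adjusted p = 0.00832).

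Csf2rb (chr15:78325752-78353847) encodes the beta chain shared by the receptors for IL-3, IL-5 and GM-CSF. It was at 1.08 to 40.4 CPM (median 17.1) in liver Treg and 0.219 to 1.66 CPM (median 0.990) in spleen Treg, against 0.228 to 1.17 CPM (median 0.576) in liver Tconv and 0.109 to 1.34 CPM (median 0.387) in spleen Tconv. The lowest liver Treg library fell within the spleen Treg range, while within CCl4 and within control the liver Treg libraries lay above the spleen ones. Its difference was 3.14, SE 0.57, adjusted p = 0.000185, called within CCl4 (3.85) and not within control (2.42, SE 0.89, adjusted p = 0.103). The near-identical mouse gene Csf2rb2 was also called (1.87, SE 0.51, adjusted p = 0.0092), and reads may be divided between them uncertainly.

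Tnfsf4, which encodes the ligand of the costimulatory receptor OX40, and Mreg, a gene of pigment granule transport, were lower in abundance. Tnfsf4 was at 1.08 to 17.7 CPM (median 6.79) in liver Treg and 0 to 0.258 CPM (median 0.139) in spleen Treg, against 0.131 to 2.76 CPM (median 1.87) in liver Tconv and 0 to 1.26 CPM (median 0.654) in spleen Tconv. Here the interval of the Tconv fold change, 0.08 to 2.57, lay above 0 although the adjusted p did not pass the threshold (0.0661). The difference was 4.17, SE 0.93, adjusted p = 0.00156. For Mreg it was 4.44, SE 1.07, adjusted p = 0.00348, with 1.44 to 10.9 CPM (median 5.55) in liver Treg and no more than 1.18 CPM in any other library. Without the spleen controls of low Fos, Mreg was no longer called (4.30, adjusted p = 0.0774).

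**Figure D3:**
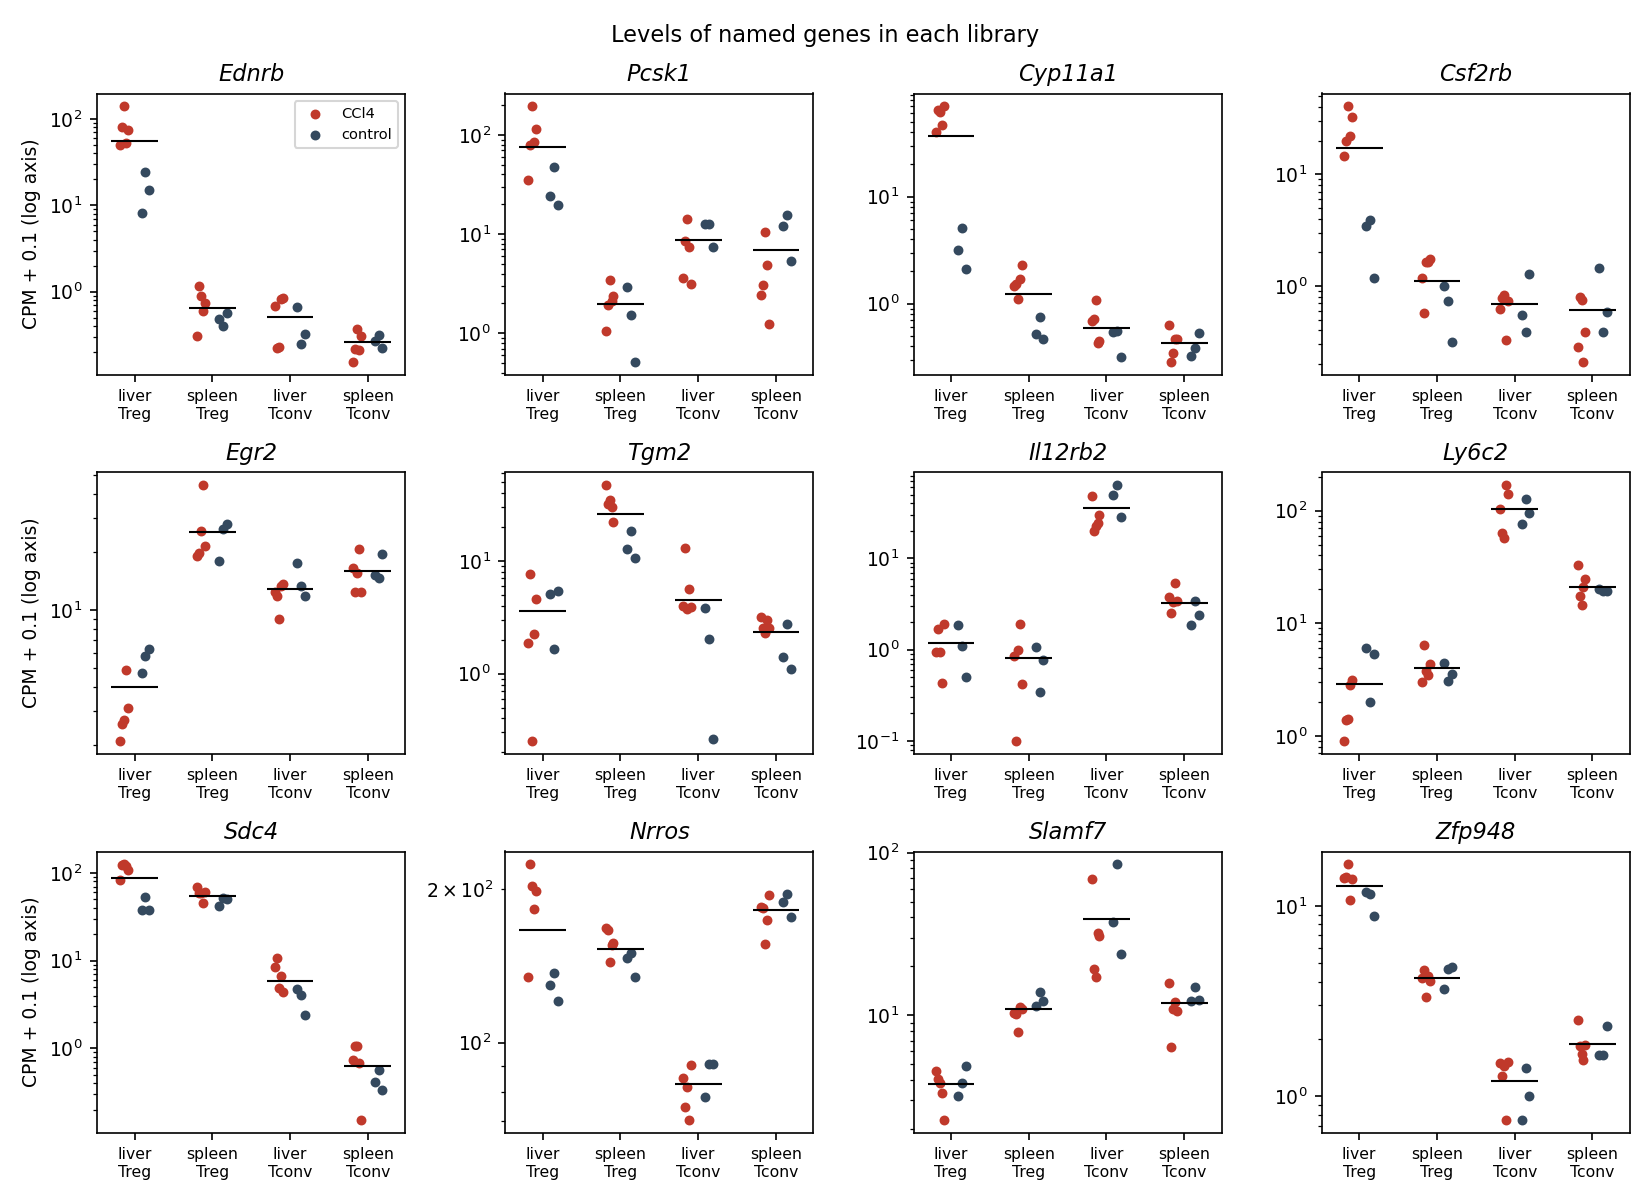
Level of 12 named genes in every library, as CPM + 0.1 on log axes, with CCl4 libraries in red, control libraries in dark blue and the mean of the 8 libraries of a population as a black line. Ednrb, Pcsk1, Cyp11a1 and Csf2rb are raised in liver Treg, Egr2 and Tgm2 are reduced there against spleen Treg, and Il12rb2 and Ly6c2 are raised in liver Tconv. Slamf7 and Zfp948 differ between liver and spleen in opposite directions in the 2 cell types.

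To show the sequence at the start of genes of opposite behaviour, the promoters of Pcsk1 and Slamf7, which is described among the genes of opposite direction, are printed from RefSeq (GRCm38.p6), 250 bases before the start, 5′ to 3′ on the gene's strand. Capitals mark the KLF motif CCACCC in Pcsk1, 122 bases before the start, and the AP-1 motif TGACTCA in Slamf7, 42 bases before the start. The start is that of RefSeq, and both windows lie partly or wholly within the longer genes of the annotation used for the counts.
Pcsk1, chr13:75089607-75089856, plus strand: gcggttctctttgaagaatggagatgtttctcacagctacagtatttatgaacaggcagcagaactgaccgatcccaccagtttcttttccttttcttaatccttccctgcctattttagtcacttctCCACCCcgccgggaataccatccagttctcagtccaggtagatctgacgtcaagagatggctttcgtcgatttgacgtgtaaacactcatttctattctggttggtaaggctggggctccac
Slamf7, chr1:171649000-171649249, minus strand: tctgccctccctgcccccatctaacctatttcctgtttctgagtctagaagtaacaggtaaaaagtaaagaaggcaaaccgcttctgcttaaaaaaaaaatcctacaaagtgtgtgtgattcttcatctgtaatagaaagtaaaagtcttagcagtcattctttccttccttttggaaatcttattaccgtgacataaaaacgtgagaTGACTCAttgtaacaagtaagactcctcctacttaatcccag

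A KLF, an AP-1, a GATA and a T-box motif were searched on both strands in these windows, for the 12124 tested genes with a RefSeq promoter. CCACCC was held by 28.3% of the promoters of genes higher in liver in Treg alone, by 39.8% of those higher in Tconv alone and by 32.2% of all. TGACTCA was held by 3.31%, 5.64% and 3.27%, the GATA motif AGATAA by 10.54%, 5.64% and 7.09%, and the T-box motif TCACACCT by 1.81%, 0% and 0.883%. Among genes lower in liver Treg and higher in liver Tconv, the group of Slamf7, CCACCC was held by 44.3% and TGACTCA by 4.92%. The T-box shares rest on 6 of 332 promoters for Treg alone and 0 of 319 for Tconv alone. All these shares describe letters in a window and were not tested.

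Liver Treg carried less of a transcription factor of T cell restraint, of a Wnt ligand and of several structural genes than spleen Treg, with no call in Tconv. The 6 genes chosen were Dnah7a, Tgm2, Fhdc1, Ntn4, Wnt3 and Egr2, and their differences ran from -3.51 to -2.34.

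Egr2 (chr10:67535475-67542188), a transcription factor induced by T cell receptor signals that limits T cell activation, was at 2.00 to 6.16 CPM (median 3.80) in liver Treg, against 17.9 to 44.3 CPM (median 23.5) in spleen Treg. In Tconv it was at 8.87 to 17.5 CPM (median 12.8) in liver, against 12.3 to 20.6 CPM (median 15.3) in spleen. The Treg populations were apart by a wide margin, and the Tconv populations overlapped. Egr2 differed by -2.34, SE 0.26, adjusted p = 1.35e-07, with -2.76 in CCl4 and -1.92 in control, both called.

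Dnah7a (chr1:53397006-53706784), a gene for a dynein heavy chain of cilia, was at 0.639 to 3.33 CPM (median 1.72) in liver Treg, against 12.7 to 17.5 CPM (median 15.4) in spleen Treg. Both Tconv populations were low, at 0.203 to 1.30 CPM (median 0.605) in liver and 0.0514 to 1.49 CPM (median 0.147) in spleen. Its difference was -3.51, SE 0.63, adjusted p = 0.000157, and close copies of the gene make the assignment of reads uncertain. Tgm2 (chr2:158116402-158146436), which encodes the protein cross-linking enzyme transglutaminase 2, was at 0.152 to 7.63 CPM (median 3.33) in liver Treg, against 10.47 to 46.8 CPM (median 26.1) in spleen Treg. It was at 0.165 to 12.8 CPM (median 3.73) in liver Tconv, against 1.01 to 3.10 CPM (median 2.45) in spleen Tconv, and the difference was -3.28, SE 0.67, adjusted p = 0.000707.

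Wnt3, a secreted Wnt ligand gene, was at 0.0296 to 1.59 CPM (median 0.535) in liver Treg, against 3.95 to 8.26 CPM (median 6.48) in spleen Treg, and its difference was -2.49, SE 0.60, adjusted p = 0.0033. In liver Tconv it was at 0.325 to 3.36 CPM (median 1.27), against 1.37 to 2.79 CPM (median 2.05) in spleen Tconv. Ntn4, which encodes the matrix protein netrin 4, differed by -2.67, SE 0.75, adjusted p = 0.0109, and Fhdc1, a formin gene, by -2.83, SE 0.90, adjusted p = 0.0247. These 3 genes were under 15 CPM in every library and lost the call without the spleen controls of low Fos, at -2.43, adjusted p = 0.0655 for Wnt3, -2.004, adjusted p = 0.176 for Ntn4 and -2.47, adjusted p = 0.191 for Fhdc1. Fhdc1 also lost it with each library weighted alike (-2.13, adjusted p = 0.114), in limma-voom (-2.19, adjusted p = 0.189), and without liver Tconv control 1, liver Tconv CCl4 3, spleen Treg control 3 or spleen Tconv control 3, with adjusted p between 0.0512 and 0.0858.

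Liver Tconv gained genes of type 1, type 17 and cytotoxic cells that liver Treg did not gain to a like extent. The 6 genes chosen were Il17f, Xcl1, Gcnt2, Sdc4, Il12rb2 and Ly6c2, and their differences ran from -3.19 to -2.75.

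Il12rb2 (chr6:67291318-67376188), the chain that confers IL-12 signalling on type 1 helper cells, was at 0.330 to 1.82 CPM (median 0.920) in liver Treg, against 0 to 1.82 CPM (median 0.713) in spleen Treg. In liver Tconv it was at 20.02 to 63.1 CPM (median 29.1), against 1.77 to 5.24 CPM (median 3.28) in spleen Tconv. The Treg populations overlapped fully at low levels, and no liver Tconv library came near the spleen range. The difference was -3.03, SE 0.58, adjusted p = 0.00034.

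Ly6c2 (chr15:75108158-75111970), a surface marker gene of effector T cells and monocytes, was at 0.799 to 5.97 CPM (median 2.31) in liver Treg and 2.90 to 6.24 CPM (median 3.54) in spleen Treg. It was at 57.5 to 168 CPM (median 98.9) in liver Tconv, against 14.4 to 32.6 CPM (median 19.7) in spleen Tconv. The difference was -2.75, SE 0.38, adjusted p = 4.08e-06, and the close copy Ly6c1, which was lower in liver in both cell types, differed by -1.87, SE 0.23, adjusted p = 5.17e-07, so that reads of the pair may be assigned uncertainly. Sdc4 (chr2:164424247-164443887), the heparan sulfate proteoglycan gene syndecan 4, had a large difference in fold change at a low level in Tconv. It was at 37.8 to 126 CPM (median 96.7) in liver Treg and 42.2 to 69.7 CPM (median 54.8) in spleen Treg, against 2.32 to 10.7 CPM (median 4.70) in liver Tconv and 0.0520 to 0.971 CPM (median 0.525) in spleen Tconv. The difference was -3.05, SE 0.34, adjusted p = 1.17e-07, although Treg had the higher level in both tissues.

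Il17f, a type 17 cytokine gene, was at or under 1.39 CPM in every Treg library, and at 12.2 to 27.6 CPM (median 14.9) in liver Tconv, against 0.108 to 1.82 CPM (median 0.561) in spleen Tconv. Its difference was -3.19, SE 1.07, adjusted p = 0.0342. Xcl1, a chemokine gene of cytotoxic and innate-like lymphocytes, was at or under 1.05 CPM in every Treg library, and at 5.18 to 33.3 CPM (median 13.9) in liver Tconv, against 0.773 to 4.73 CPM (median 2.54) in spleen Tconv, with a difference of -3.14, SE 0.69, adjusted p = 0.0014. Gcnt2, a glycosyltransferase gene, was at or under 1.90 CPM in every Treg library, and at 14.4 to 75.8 CPM (median 21.03) in liver Tconv, against 0.866 to 4.14 CPM (median 1.69) in spleen Tconv, with a difference of -3.12, SE 0.70, adjusted p = 0.00164.

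The liver and spleen Tconv libraries did not overlap for these 3 genes, and their fold change in Treg rests on few counts. Without the spleen controls of low Fos the difference was -0.67, adjusted p = 1 for Il17f, -1.65, adjusted p = 0.639 for Xcl1 and 0.34, adjusted p = 0.982 for Gcnt2. Xcl1 (-3.16, adjusted p = 0.0779) and Gcnt2 (-2.80, adjusted p = 0.0819) were not called in limma-voom. Il17f also lost the call with length offsets (-2.72, adjusted p = 0.0741) and without spleen Treg control 3 (-2.51, adjusted p = 0.359), spleen Treg CCl4 4 (-2.36, adjusted p = 0.123) or spleen Tconv control 2 (-3.00, adjusted p = 0.0532). Beside them, 16 markers of innate-like and NKT-like T cells summed to 1119.8 to 1872 CPM in liver Treg and 1572.9 to 1923 CPM in spleen Treg. The same sum was 722 to 1473 CPM in liver Tconv, against 269.9 to 495 CPM in spleen Tconv. Of the 16 markers, 8 were under 1 CPM in every liver Treg library and 8 in every spleen Treg library. That number was 1 in liver Tconv and 7 in spleen Tconv, so the Treg sums come mostly from the other markers. Zbtb16, the defining transcription factor gene of these cells, was at 2.36 to 6.96 CPM in CCl4 and 15.1 to 36.3 CPM in control libraries of liver Tconv. The part of such cells in the difference was not tested.

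In a smaller group genes were lower in liver in Tconv and not called in Treg. The 6 genes chosen were Tlr2, Lzts1, Nrros, Arl4c, Tspyl4 and Ctu1, and their differences ran from 1.65 to 1.04.

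Nrros (chr16:32142785-32165594), which encodes a membrane protein that limits reactive oxygen species, was at 121 to 224 CPM (median 160.2) in liver Treg, against 134 to 168 CPM (median 153) in spleen Treg. It was at 70.4 to 90.8 CPM (median 83.5) in liver Tconv, against 156 to 196 CPM (median 184) in spleen Tconv. No liver Tconv library reached the spleen Tconv range, and the Treg populations overlapped. The difference was 1.18, SE 0.11, adjusted p = 3.13e-09, and the Treg fold change had an interval of -0.10 to 0.21.

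Arl4c (chr1:88673125-88702221), a small GTPase gene of the ARF family, was at 20.5 to 26.5 CPM (median 22.6) in liver Treg, against 21.6 to 26.9 CPM (median 23.5) in spleen Treg. In Tconv it was at 32.04 to 41.8 CPM (median 36.2) in liver, against 66.2 to 107 CPM (median 82.3) in spleen, and the difference was 1.16, SE 0.12, adjusted p = 3.31e-08. Tlr2, the receptor gene for bacterial lipoproteins, was at 4.44 to 15.3 CPM (median 8.31) in liver Treg and 5.64 to 9.21 CPM (median 6.54) in spleen Treg, against 1.83 to 5.55 CPM (median 2.72) in liver Tconv and 6.95 to 10.4 CPM (median 8.28) in spleen Tconv. Its difference was 1.65, SE 0.29, adjusted p = 0.000103. Ctu1, a gene of transfer RNA thiolation, differed by 1.04, SE 0.17, adjusted p = 6.81e-05, Tspyl4 by 1.11, SE 0.16, adjusted p = 1.07e-05 and Lzts1 by 1.23, SE 0.26, adjusted p = 0.00103. Lzts1 lost the call when transcript length was entered as an offset (0.56, adjusted p = 0.483).

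For 274 genes liver and spleen differed in opposite directions in the 2 cell types. Slamf7 (chr1:171632403-171653035), a receptor gene of cytotoxic lymphocytes, was at 2.17 to 4.82 CPM (median 3.74) in liver Treg, against 7.74 to 13.8 CPM (median 11.01) in spleen Treg. It was at 17.2 to 84.7 CPM (median 31.4) in liver Tconv, against 6.27 to 15.6 CPM (median 12.1) in spleen Tconv. Spleen Treg and spleen Tconv had like levels, while liver Treg lay below them and liver Tconv above. The log2 fold change was -1.59, SE 0.26, adjusted p = 6.55e-06 in Treg and 1.75, SE 0.25, adjusted p = 1.13e-06 in Tconv, and the difference -3.34, SE 0.36, adjusted p = 1.1e-07.

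Socs3 (chr11:117966079-117970047), which encodes an inhibitor of cytokine receptor signalling, showed the same layout at a higher level. It was at 130.2 to 229 CPM (median 167) in liver Treg, against 249.7 to 364 CPM (median 298) in spleen Treg, and at 395 to 546 CPM (median 509.6) in liver Tconv, against 230.3 to 358 CPM (median 289) in spleen Tconv. The difference was -1.501, SE 0.10, adjusted p = 1.03e-11. St3gal6, a sialyltransferase gene, differed by -1.82, SE 0.19, adjusted p = 6.02e-08, and Ctsw, a cathepsin gene of cytotoxic cells, by -1.74, SE 0.19, adjusted p = 1.12e-07, both lower in liver Treg and higher in liver Tconv.

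Zfp948 (chr17:21567008-21588699), a zinc finger gene, went the other way. It was at 8.79 to 16.5 CPM (median 12.8) in liver Treg, against 3.24 to 4.66 CPM (median 4.12) in spleen Treg, and at 0.649 to 1.41 CPM (median 1.24) in liver Tconv, against 1.45 to 2.40 CPM (median 1.65) in spleen Tconv. Neither pair overlapped, and the difference was 2.29, SE 0.23, adjusted p = 2.77e-08. Sema4b, a semaphorin gene, was at 47.5 to 79.5 CPM (median 56.3) in liver Treg and 30.1 to 44.3 CPM (median 32.9) in spleen Treg, against 8.51 to 17.3 CPM (median 13.5) in liver Tconv and 21.4 to 29.1 CPM (median 24.4) in spleen Tconv, with a difference of 1.74, SE 0.16, adjusted p = 2.88e-09. Smaller differences of this kind were those of Leng8 (0.95, SE 0.12, adjusted p = 1.2e-06) and of Mfge8, whose product bridges dying cells to phagocytes (0.89, SE 0.14, adjusted p = 4.14e-05).

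Genes of Treg identity were mostly lower in the difference, with 8 of 16 higher in liver Treg and 11 of 16 higher in liver Tconv. Of 16 tested, 1 was higher and 11 lower (median -0.67, against -0.03 over all genes). Over all genes tested 7.02% were called higher and 12.4% lower, and the counts of every list below stand beside these shares. All genes tested include genes of low level, and no list was set beside genes of like level. The lists were chosen with earlier results of these data known, so their counts describe the members and are no independent test. Liver against spleen was called higher for 30.1% of all genes in Treg and 27.2% in Tconv. Ctla4, an inhibitory receptor gene, was at 2138 to 2716 CPM (median 2460.0) in liver Treg and 409.6 to 614 CPM (median 579) in spleen Treg, against 256 to 481 CPM (median 346) in liver Tconv and 15.9 to 38.6 CPM (median 32.2) in spleen Tconv. The log2 fold change was 2.18 in Treg and 3.65 in Tconv, a difference of -1.47, SE 0.17, adjusted p = 2.09e-07.

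On the linear scale the order is the other way: mean Ctla4 in liver exceeded that in spleen by 1886.7 CPM in Treg and by 338 CPM in Tconv. Such a turn of sign between scales was found for 178 of the 2120 genes called lower and 13 of the 1204 called higher. It was most frequent, at 96 of 406, among genes that gained more in Tconv. Of the genes named here it also holds for Ahr, Birc5, Ccr8, Foxp3, Gzmb, Icos, Igfbp4, Irf4, Itgae, Klrg1, Nsg2, Prdm1, Sdc4, Tcf7, Tigit and Tnfrsf4. Ccr8 in liver exceeded spleen by 454 CPM in Treg and 69.6 CPM in Tconv, and Itgae by 65.8 CPM in Treg and 6.84 CPM in Tconv, so their negative differences are in fold and not in amount.

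Il2ra, the IL-2 receptor alpha chain gene, averaged 569 ± 141 CPM in liver Treg, with 602 ± 35.05 CPM in spleen Treg (SD, n = 8 here and below), against 27.2 ± 11.2 CPM in liver Tconv and 7.80 ± 1.51 CPM in spleen Tconv. It differed by -2.002, SE 0.23, adjusted p = 2.48e-07, and the OX40 gene Tnfrsf4 by -1.91, SE 0.14, adjusted p = 2.6e-11. Entpd1, which encodes the ectonucleotidase CD39, differed by -2.09, SE 0.25, adjusted p = 6.43e-07, and Gpr83, an orphan receptor gene that was lower in liver in both cell types, by -1.24, SE 0.16, adjusted p = 1.6e-06. Foxp3 was the 1 member higher (0.61, SE 0.18, adjusted p = 0.0147), with averages of 1.46 CPM in liver Tconv and 2.22 CPM in spleen Tconv, both near the floor. That call was lost with each library weighted alike, in limma-voom and without the spleen controls of low Fos (adjusted p between 0.0586 and 0.0886). Ikzf2, the Helios gene, was not called (0.39, SE 0.17, adjusted p = 0.113) except without liver Tconv control 3 (0.49, adjusted p = 0.0473) or liver Tconv CCl4 5 (0.45, adjusted p = 0.0476).

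The tissue Treg and repair list split evenly, with 7 of 20 higher and 7 lower, although 19 of 20 were higher in liver in each cell type. On the higher side stood Id2 (1.62, SE 0.18, adjusted p = 1.35e-07), Gata3 (0.73, SE 0.12, adjusted p = 3.1e-05), Il1rl1 (1.14, SE 0.30, adjusted p = 0.00701) and Pparg (1.62, SE 0.52, adjusted p = 0.0273), a nuclear receptor gene of lipid metabolism. On the lower side stood Bhlhe40 (-1.49, SE 0.33, adjusted p = 0.00138), Irf4 (-1.40, SE 0.25, adjusted p = 0.000176), the chemokine receptor gene Ccr8 (-1.23, SE 0.23, adjusted p = 0.000231) and Prdm1 (-0.98, SE 0.21, adjusted p = 0.000863), all transcriptional regulators but for Ccr8.

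Gata3 stood at 282 to 1023 CPM (median 742) in liver Treg and 187 to 289 CPM (median 272) in spleen Treg, against 166 to 198 CPM (median 184) in liver Tconv and 105 to 181 CPM (median 153) in spleen Tconv. Il1rl1 stood at 223 to 674 CPM (median 380.3) in liver Treg and 19.8 to 45.1 CPM (median 34.9) in spleen Treg, against 7.23 to 17.2 CPM (median 13.2) in liver Tconv and 1.07 to 3.66 CPM (median 2.13) in spleen Tconv, and it lost the call in limma-voom (1.14, adjusted p = 0.0714) and without the spleen controls of low Fos (1.19, adjusted p = 0.0629). Liver and spleen Treg did not overlap for Il1rl1, and for Gata3 they did not overlap within CCl4 or within control. Klrg1, a marker gene of differentiated effector cells and tissue Treg, was at the edge of the threshold (-1.35, SE 0.48, adjusted p = 0.0478) and lost the call in 28 of its 41 alternatives. Areg was not called (-0.65, SE 0.47, adjusted p = 0.379) except without spleen Tconv control 1 (-1.94, adjusted p = 0.0433), and Il10, an inhibitory cytokine gene, was not called (0.21, SE 0.70, adjusted p = 0.903).

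In the Th1 and cytotoxic list 10 of 18 were lower in the difference and 0 higher (median -1.20), and 12 were higher in liver Treg and 15 in liver Tconv. The granzyme gene Gzmb averaged 216 ± 43.2 CPM in liver Treg, with 39.9 ± 8.31 in spleen Treg, against 115 ± 64.05 in liver Tconv and 3.75 ± 2.20 in spleen Tconv. It differed by -2.66, SE 0.45, adjusted p = 8.02e-05, the death ligand gene Fasl by -2.17, SE 0.24, adjusted p = 1.13e-07, the type 1 cytokine gene Ifng by -1.99, SE 0.56, adjusted p = 0.0118 and its regulator Tbx21 by -1.44, SE 0.31, adjusted p = 0.00131. In the Th17 list 6 of 12 were lower and 0 higher (median -1.09), with Tmem176b at -1.76, SE 0.23, adjusted p = 2.52e-06.

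Of 8 tested Th2 genes, 5 were higher and 1 lower (median 1.15). The 5 were Cyp11a1, Gata3, Il1rl1, the prostaglandin D synthase gene Hpgds (1.64, SE 0.25, adjusted p = 1.48e-05) and Il17rb, a chain of the IL-25 receptor (1.16, SE 0.34, adjusted p = 0.0147), some of them shared with the tissue Treg list. Within CCl4 4 were higher and 0 lower (median 1.56), and within control 1 higher and 1 lower (median 0.23). Over all genes tested 5.4% were called higher and 9.09% lower within CCl4, and 1.91% and 4.63% within control, where there are fewer libraries. The 1 Th2 gene lower in the averaged difference was the cytokine gene Il4 (-2.16, SE 0.77, adjusted p = 0.0467). It was at or near 0 CPM in Treg, at 5.92 ± 3.65 CPM in liver Tconv and 1.33 ± 0.373 CPM in spleen Tconv.

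The naive and lymphoid recirculation list had 11 of 18 lower and 1 higher (median -0.75). Within CCl4 13 were lower (median -1.22), beside 9.09% of all genes. Within control, where there are fewer libraries, 3 were lower and 1 higher (median -0.26), beside 4.63% and 1.91% of all genes. Tcf7, a transcription factor gene of naive and memory-like T cells, stood at 66.99 to 245 CPM (median 85.04) in liver Treg and 437 to 550.02 CPM (median 498) in spleen Treg, against 1286 to 1782 CPM (median 1641) in liver Tconv and 2193 to 2656 CPM (median 2475) in spleen Tconv. Liver and spleen did not overlap in either cell type, and the difference was -1.30, SE 0.09, adjusted p = 1.03e-11. Igfbp4 (-1.70, SE 0.18, adjusted p = 9.28e-08), Nsg2 (-1.82, SE 0.18, adjusted p = 2.31e-08) and Ly6c1 likewise fell by a larger factor in liver Treg. Klf2, which maintains the recirculation programme, and its target S1pr1, the receptor gene for exit from lymphoid organs, were called higher in liver in both cell types and more so in Tconv, with differences of -0.71, SE 0.09, adjusted p = 2.19e-06 for Klf2 and -0.62, SE 0.12, adjusted p = 0.000298 for S1pr1. Their liver and spleen libraries overlapped in Treg, where S1pr1 had a median of 403 CPM in liver and 412 CPM in spleen. Foxo1 was the 1 member higher (0.39, SE 0.08, adjusted p = 0.000507).

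Tissue residency genes had 10 of 18 lower and 1 higher (median -0.66). Cd160, a receptor gene of natural killer and memory T cells, was at 0.474 to 4.18 CPM (median 1.29) in liver Treg and 12.4 to 20.8 CPM (median 17.1) in spleen Treg, against 2.26 to 56.6 CPM (median 22.6) in liver Tconv and 7.26 to 14.7 CPM (median 9.33) in spleen Tconv. The Treg populations were wholly apart, with the liver lower, and the difference was -4.62, SE 0.50, adjusted p = 8.96e-08. Itgae, the integrin gene for CD103, differed by -1.06, SE 0.29, adjusted p = 0.00846, Rgs1 by -1.83, SE 0.37, adjusted p = 0.000581 and the aryl hydrocarbon receptor gene Ahr by -0.86, SE 0.14, adjusted p = 3.76e-05. Zfp683, the Hobit gene, was called higher in liver in Tconv and not in Treg, with a difference of -2.76, SE 0.58, adjusted p = 0.000859.

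Of 27 cytokine receptor and related genes 15 were lower and 4 higher (median -0.29). The IL-2 receptor beta chain gene Il2rb differed by -2.03, SE 0.19, adjusted p = 4.37e-09, and the interferon gamma receptor gene Ifngr1, which was higher in liver in both, by -1.23, SE 0.08, adjusted p = 1.03e-11. Csf1, a cytokine gene included in that list, differed by -2.60, SE 0.42, adjusted p = 4.17e-05. The 4 higher were Csf2rb, Csf2rb2, Il1rl1 and Il17rb. In the chemokine receptor list 6 of 18 were lower and 0 higher, with Ccr6 at -1.22, SE 0.22, adjusted p = 0.000155 and Cxcr3 at -0.73, SE 0.19, adjusted p = 0.00612. Cxcr3 lost the call without the spleen controls of low Fos (-0.71, adjusted p = 0.085). The median difference of the chemokine receptor list was -0.45, while its median liver fold changes were 1.97 in Treg and 1.83 in Tconv. The medians taken apart thus do not order the cell types as the paired difference does.

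Activation genes had 9 of 18 lower and 2 higher (median -0.49), with the costimulatory receptor gene Icos at -1.23, SE 0.10, adjusted p = 2.43e-10 and Tigit at -1.65, SE 0.25, adjusted p = 1.44e-05. Of 16 integrin genes 4 were higher and 5 lower. Itgav, the alpha V chain gene of integrins that bind matrix and latent TGF-beta, averaged 527 ± 205 CPM in liver Treg, with 79.96 ± 10.1 in spleen Treg, against 55.8 ± 12.95 in liver Tconv and 29.6 ± 5.33 in spleen Tconv. It differed by 1.71, SE 0.15, adjusted p = 2.09e-09, and Itgb1, the beta 1 chain gene, by -0.82, SE 0.14, adjusted p = 0.000101. Of 24 cell cycle genes 14 were lower and 0 higher (median -0.60), with 21 higher in liver Treg and 23 in liver Tconv. In amount the members went both ways. Mean Birc5 in liver exceeded spleen by 26.9 CPM in Treg and 22.3 CPM in Tconv, and Rrm2 by 55.6 CPM in Treg and 72.4 CPM in Tconv. Within CCl4 11 were lower, beside 9.09% of all genes, and within control 0 were called by edgeR, beside 4.63%. The medians were -0.63 in CCl4 and -0.63 in control. Rrm2 (-0.93, SE 0.20, adjusted p = 0.00149) and Birc5 (-0.86, SE 0.20, adjusted p = 0.00267) were among the 14 lower in the averaged difference.

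Fatty acid handling had 7 of 20 higher and 2 lower, with the triglyceride synthesis genes Dgat1 (0.66, SE 0.13, adjusted p = 0.000515) and Dgat2 (0.98, SE 0.31, adjusted p = 0.0252) higher. Dgat1 averaged 906 ± 58.8 CPM in liver Treg, with 46.9 ± 4.64 in spleen Treg, against 395 ± 85.3 in liver Tconv and 31.9 ± 2.37 in spleen Tconv. Oxidative phosphorylation had 8 of 18 lower and 0 higher, by small amounts (median -0.17). Of 19 cholesterol synthesis genes 3 were higher and 1 lower (median 0.27). Of 16 glycolysis genes 1 was higher and 3 lower (median 0.18), near the 7.02% and 12.4% of all genes. At an unadjusted p under 0.05, edgeR had 8 higher and 1 lower for cholesterol synthesis, and 8 higher and 3 lower for glycolysis.

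The remaining lists are read against the same 12.4% of all genes tested that were called lower and the same 7.02% called higher. T cell receptor signalling had 8 of 18 lower and 0 higher, and immediate early genes 5 of 19 lower and 0 higher. Heat shock genes had 4 of 12 lower and 0 higher, although all 12 were higher in liver in each cell type. Interferon response had 7 of 22 lower and 1 higher. Liver against spleen, its members were 17 lower and 2 higher in Treg, and 11 lower and 4 higher in Tconv. Over all genes 30.5% were lower in liver in Treg and 27.7% in Tconv. Within CCl4 the interferon list had 9 lower, beside 9.09% of all genes, and within control 1 lower, beside 4.63%. The Krueppel-like and naive transcription factors had 8 of 17 lower and 1 higher, and follicular helper genes 5 of 12 lower and 1 higher. NF-kB genes had 4 of 15 lower and 2 higher. Both NF-kB shares were above those of all genes, which include genes of low level. The ratio of lower to higher was much like that of all genes. At an unadjusted p under 0.05, edgeR had 3 T cell receptor signalling genes higher, 1 chemokine receptor and 1 oxidative phosphorylation gene, and 0 in the Th1 and cytotoxic, Th17, cell cycle, immediate early and heat shock lists. Nfkb1 was on the higher side (0.85, SE 0.10, adjusted p = 5.07e-07) and Isg15, an interferon-induced gene, on the lower (-1.40, SE 0.19, adjusted p = 4.89e-06).

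**Figure D4:**
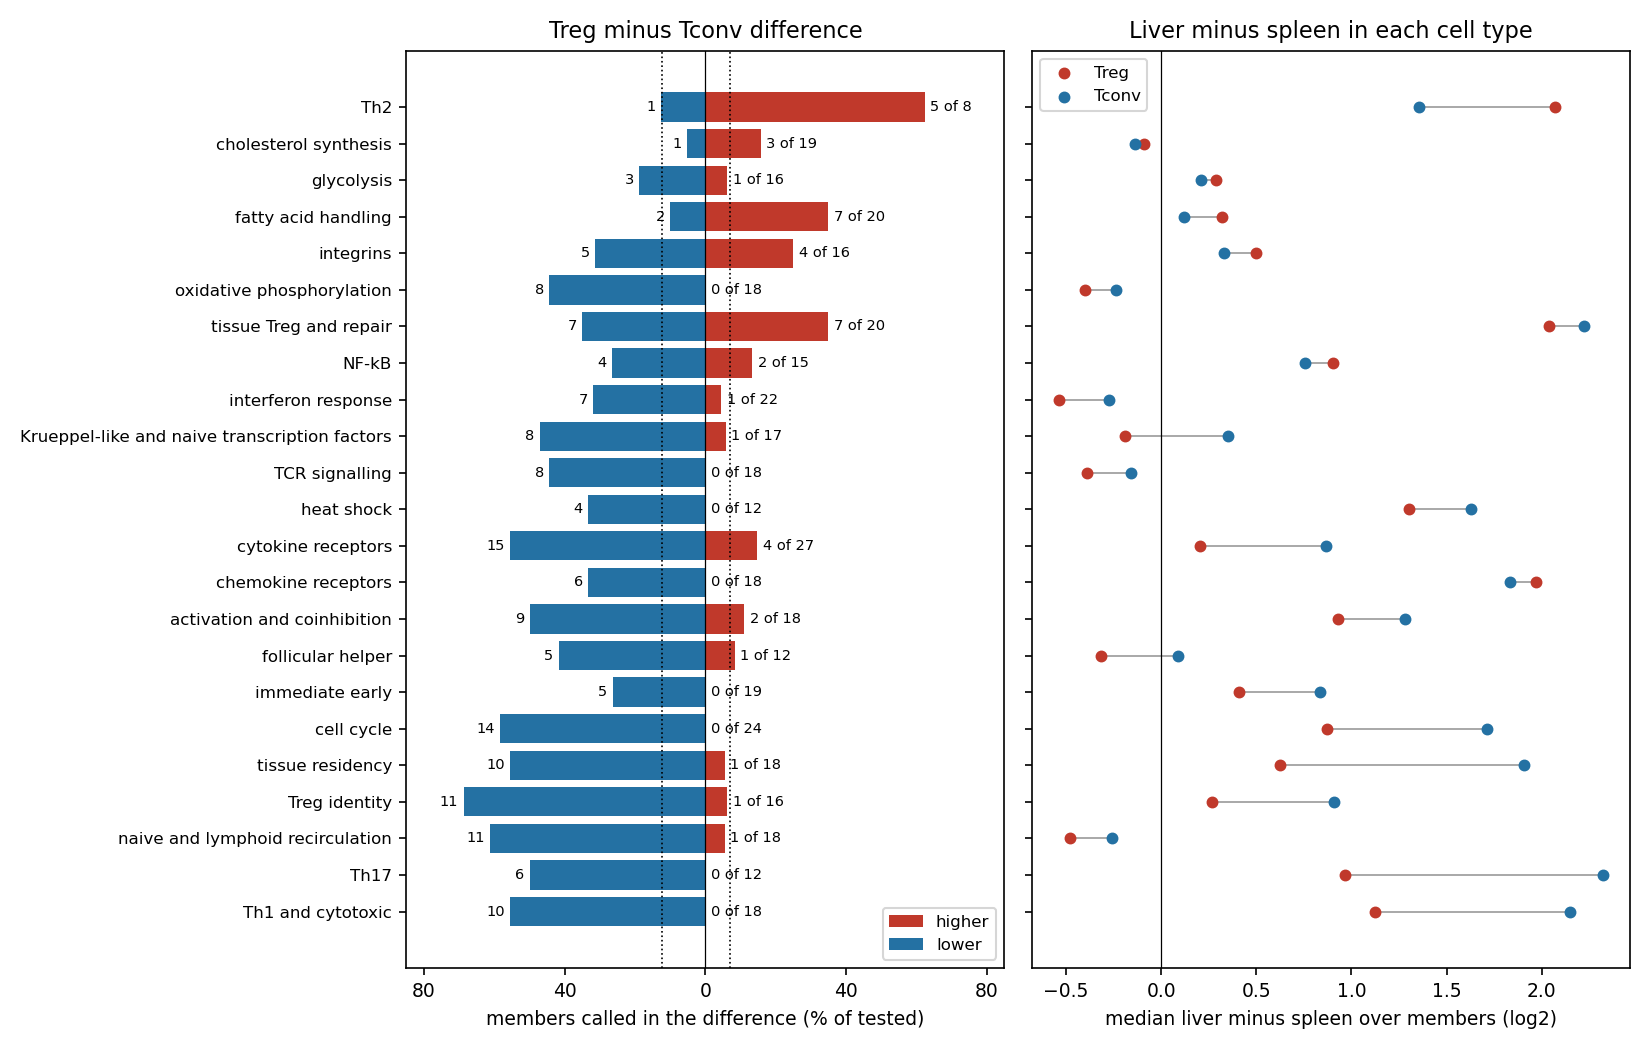
Left, percent of the tested members of each gene list called higher (red) or lower (blue) in the Treg minus Tconv difference, with counts beside the bars and dotted lines at the 7.02% and 12.4% of all genes tested that were called higher and lower. Right, median log2 fold change of liver over spleen over the members in Treg and in Tconv. Th2 has 5 of 8 members higher, while Th1 and cytotoxic, Th17 and cell cycle have none higher. The lists were chosen with earlier results of these data known.

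Markers of other cells were counted in the same way, beside the same 12.4% lower and 7.02% higher of all genes. Of innate-like and NKT-like markers 6 of 16 were lower and 1 higher, with Klrb1c at -5.74, SE 0.63, adjusted p = 1.12e-07 (0 to 0.244 CPM (median 0.0335) in liver Treg and 1.02 to 3.29 CPM (median 1.84) in spleen Treg, against 1.17 to 10.1 CPM (median 2.54) in liver Tconv and 0.613 to 4.62 CPM (median 1.99) in spleen Tconv). Of B cell markers 4 of 14 were lower and 1 higher, of dendritic cell markers 3 of 9 lower, of NK cell markers 3 of 5 lower and of myeloid markers 1 of 16 lower. The myeloid count is below the share of all genes. Endothelial markers had 1 of 10 higher, near that share, and CD8 T cell markers 1 of 2 higher. By edgeR none of the 10 stellate, 5 erythroid and 8 pancreatic markers tested was called, and 2, 0 and 1 of them were lower at an unadjusted p under 0.05. T cells express many NKT-like, NK and dendritic markers themselves.

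The difference was also taken within CCl4 and within control libraries, which share no sample. It was called for 2487 genes in CCl4 (14.5% of those tested), 927 higher (5.4%) and 1560 lower (9.09%), and for 1122 in control (6.54%), 327 higher (1.91%) and 795 lower (4.63%), where there are fewer libraries. Of the 927 genes higher in CCl4, 780 (84.1%) had the same sign in control, and of the 1560 lower ones 1393 (89.3%). In the other direction 314 of 327 (96.0%) and 765 of 795 (96.2%) of the genes called in control had the same sign in CCl4. Among all genes tested the sign was the same for 67.2%. The count in control was 135 without the spleen controls of low Fos. It was also lower without single spleen libraries, at 676 without Treg control 1, 721 without Treg control 3, 658 without Tconv control 2 and 656 without Tconv control 3.

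A difference that itself changed with CCl4 was called for few genes. The contrast of CCl4 against control was called for 53 genes (0.309% of those tested; 1575 at an unadjusted p under 0.05), 33 of them higher (0.192%) and 20 lower (0.117%). The 5 genes of smallest adjusted p were Ramp1, Evl, Tcf7, Pcyt1a and Tpd52. The count was 93 without liver Tconv CCl4 1 and 11 without the spleen controls of low Fos.

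For each of these 5 genes the CCl4 libraries of liver Treg did not overlap the control libraries of liver Treg. Pcyt1a, which encodes the rate-limiting enzyme of phosphatidylcholine synthesis, averaged 447 ± 96.9 CPM in CCl4 and 81.9 ± 16.7 CPM in control liver Treg (SD, n = 5 and 3), with 29.9 ± 3.85 CPM in CCl4 and 20.4 ± 5.00 CPM in control spleen Treg. In liver Tconv it averaged 18.2 ± 2.91 CPM in CCl4 and 22.6 ± 1.09 CPM in control, and in spleen Tconv 18.4 ± 2.15 CPM in CCl4 and 16.5 ± 1.04 CPM in control. The Treg minus Tconv difference was 3.91 in CCl4 and 1.55 in control, a change of 2.36, SE 0.34, adjusted p = 0.000502.

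Ramp1, whose product forms the receptor for the neuropeptide CGRP, averaged 105 ± 21.7 CPM in CCl4 and 24.03 ± 3.96 CPM in control liver Treg, with 59.8 ± 6.69 CPM in CCl4 and 47.9 ± 10.7 CPM in control spleen Treg. In liver Tconv it averaged 43.1 ± 6.37 CPM in CCl4 and 49.7 ± 5.03 CPM in control, and in spleen Tconv 83.4 ± 8.53 CPM in CCl4 and 66.5 ± 5.67 CPM in control. Its difference was 1.77 in CCl4, which was called, and -0.57 in control, which was not (adjusted p = 0.162), a change of 2.34, SE 0.30, adjusted p = 0.000253. Averaged over treatments it was 0.60.

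Evl, a gene of actin assembly, averaged 29.4 ± 1.38 CPM in CCl4 and 95.9 ± 13.3 CPM in control liver Treg, against 232 ± 16.1 CPM in CCl4 and 288 ± 11.3 CPM in control spleen Treg. The difference was -2.25 in CCl4 and -0.92 in control, a change of -1.33, SE 0.18, adjusted p = 0.000259. For Tcf7 it was -1.95 in CCl4 and -0.66 in control, a change of -1.28, SE 0.18, adjusted p = 0.000372. Tpd52, a gene of vesicle traffic, had a difference of 1.16 in CCl4 and -0.05 in control, a change of 1.21, SE 0.18, adjusted p = 0.00056. Members of the lists were also among the 53. The Th2 genes Gata3 (1.24, SE 0.23, adjusted p = 0.00963), Hpgds (2.55, SE 0.49, adjusted p = 0.0122) and Il17rb (3.40, SE 0.68, adjusted p = 0.0162) had the larger difference in CCl4, at 1.35, 2.91 and 2.86, with 0.11, 0.36 and -0.54 in control. Gpr83 (-2.02, SE 0.32, adjusted p = 0.00121), Klf2 (-0.85, SE 0.19, adjusted p = 0.0352) and Nsg2 (-1.78, SE 0.36, adjusted p = 0.0176) were more negative in CCl4.

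**Figure D5:**
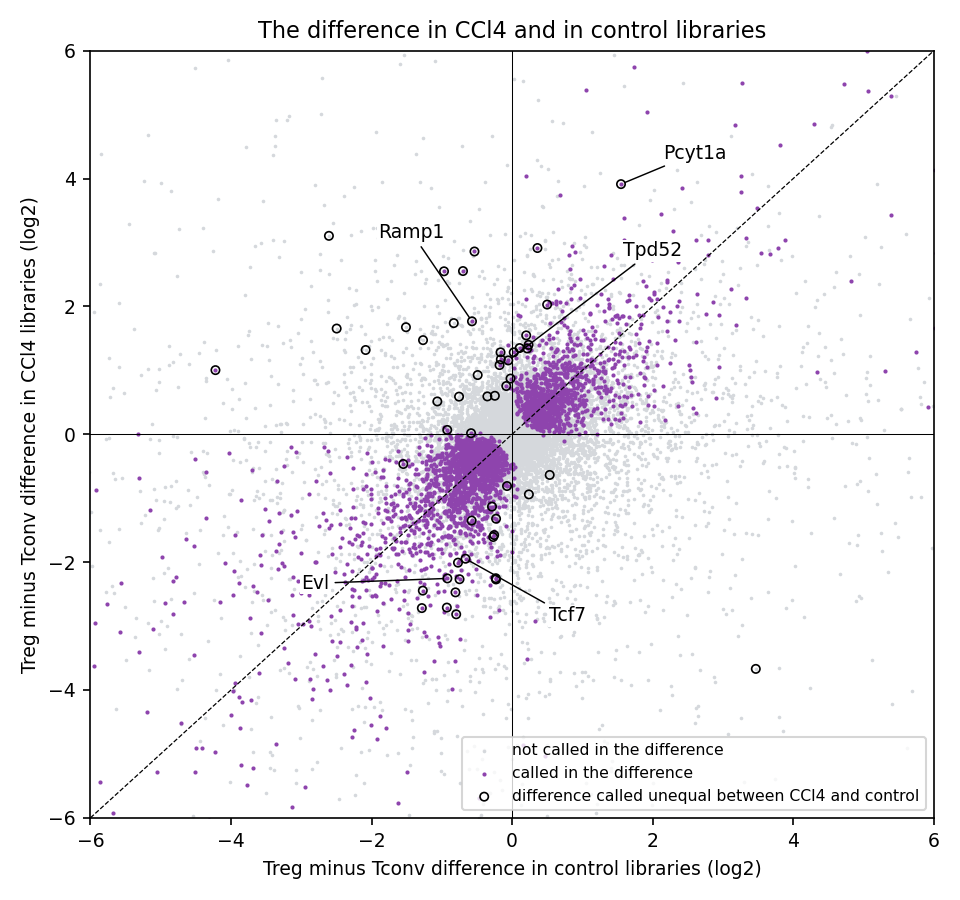
Treg minus Tconv difference in CCl4 libraries (vertical) against control libraries (horizontal), both log2, with genes called in the averaged difference in purple and rings around the 53 genes whose difference was called unequal between CCl4 and control. Purple genes were chosen on the average of both axes, which favours equal signs, and 333 genes lie outside the axes.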

How the data were processed

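RNA of sorted CD4 T cells was sequenced in 32 libraries, 5 CCl4 and 3 control in each of 4 populations. Per the submitters' processing notes, bcl2fastq 2.19, kallisto 0.44.0 and DESeq2 were used with GRCm38.p6. The deposited files hold estimated counts and TPM for each of 118489 transcripts of a library, per the file headers, and the transcript lengths as well. TPM, as deposited by the authors, was not tested. With the GENCODE annotation the estimated counts gave sums for 35968 genes. Transcripts without a match, 1761 per library, held 0.684 to 0.823% of the counts and were left out.

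Sums were rounded to whole numbers. Genes passing edgeR's expression filter (17159) were fitted with edgeR 4.0.16 in R 4.3.3 as 8 group means with TMM factors of 0.923 to 1.065 and 24 residual degrees of freedom, and contrasts were tested by quasi-likelihood with Benjamini-Hochberg adjustment. SE values and 95% intervals are approximate, from the F statistic. The fit was tested on simulated data with known changes.

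Gene lists and members were chosen with earlier results of these data known. Genes were named by the rule given beside their group, by smallest adjusted p within lists and by a few fixed names; other list members named were chosen after their values were seen. Alternatives were DESeq2 1.42.0, limma-voom (limma 3.58.1), DESeq2 size factors, other filters, length offsets, equal weights, a replicate block and leaving out libraries. Figures used matplotlib 3.10.9 in Python 3.11.15.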

Additional observations from a re-analysis of the deposited data

Results flagged for a closer look

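The test for a single library far from the others of its group was made for 77 sets of a named gene and a group of 5 CCl4 libraries, and chance marks about 1 in 20 groups. It marked 8, of which 4 were CCl4 library 1 of liver Tconv. In that library Gcnt2 stood at 75.8 CPM, Il17f at 27.6 CPM, Slamf7 at 68.8 CPM and St3gal6 at 96.6 CPM, each above the other 4. CCl4 library 4 held Egr2 at 44.3 CPM in spleen Treg, and Leng8 at 125 CPM in liver Tconv and 176 CPM in spleen Tconv. Tgm2 was at 12.8 CPM in CCl4 library 2 of liver Tconv.

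The Treg minus Tconv difference was itself unequal between CCl4 and control, by the edgeR test of that contrast, for Ramp1 (2.34), Evl (-1.33), Tcf7 (-1.28), Pcyt1a (2.36) and Tpd52 (1.21), all on the log2 scale.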

How the results depend on the processing

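Leaving out spleen controls 2 and 3 of both cell types, which keeps 1 control for each spleen population, gave 627 genes higher and 1104 lower in the difference, 135 called within control and 11 unequal between CCl4 and control. It also turned the difference of Gcnt2 to 0.34 (adjusted p = 0.982). The cause was not tested. The count of genes unequal between CCl4 and control, 53, was 82 among genes of at least 5 CPM, 83 with a replicate block and 194 in DESeq2. Leaving out 1 library at a time gave 1018 to 1250 genes higher, 1873 to 2197 lower, 656 to 1220 within control, 2241 to 2619 within CCl4 and 36 to 93 unequal between them. In the other alternatives run these counts stayed within 1.5 times. Whether same-numbered libraries share a mouse is not stated. They correlated at -0.07 to 0.48, with 29 of 48 pairs over 0.1, so not every pair met the limit set for pairing; 38 were best with their own number, every control pair among them, which is a hint of a shared origin from the data and not the design. The replicate block gave 1270 higher and 2203 lower. Of 6703 alternative results for 164 named genes, 6440 kept the call or its absence, 207 lost the call, 55 gained it and 1 turned round from a called direction. The 6440 include changes of sign in genes that were not called, such as Il10 (-0.38 to 0.65). Genes near the floor in 1 cell type limit what depth can show.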
